A study of Sus scrofa with 6 samples.

Results

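The genes described here are the core of the microRNA pathway: the nuclear processing enzymes DROSHA and DGCR8, the export receptor XPO5, the cytoplasmic enzyme DICER1, the 4 Argonaute genes AGO1 to AGO4, and the silencing adaptors TNRC6A and TNRC6B. They were chosen by name, with the older EIF2C names of the Argonautes as aliases, and not by their values. Of the 10 genes, 9 were found among the 19442 genes of the expression table. They took up 10 rows, because AGO3 is split into 2 gene models on opposite strands. TNRC6A was not found under its name and is not analysed here. A further 17 of the 9362 circular RNAs (circRNAs) of the series came from 7 of these genes.

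A microRNA is cut from a long primary transcript by the microprocessor, in which the RNase DROSHA works with the RNA-binding protein DGCR8. The hairpin is carried out of the nucleus by exportin 5 (XPO5), trimmed to a short duplex by DICER1, and loaded into an Argonaute protein, which TNRC6 proteins connect to the machinery that shortens and silences mRNAs. In mice, loss of Dicer1 in the reproductive tract and the follicle impairs fertility, and microRNAs are known regulators of granulosa cell survival.

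The libraries were made from rRNA-depleted total RNA of porcine granulosa cells, the steroid-producing cells that line the follicle. Each of the 3 healthy antral (HA) and 3 atretic antral (AA) libraries came from a pool of 10 follicles of 4 to 7 mm, taken from nulliparous gilts in the follicular phase and classed by appearance under a stereomicroscope. Atresia is the degeneration of a follicle, and the AA follicles were judged to be at an advanced stage. The scraped mural cells of either group were put together with the fluid of their follicles, so that AA samples also contain apoptotic granulosa cells that had come loose into the antrum.

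Each library held 10240665 to 15462468 inferred fragments over genes and 25838 to 34414 junction reads over circRNAs. The granulosa markers FSHR (follicle-stimulating hormone receptor), CYP19A1 (aromatase), INHA and FOXL2 were present in all 6 libraries, and AMH was not found by name. FSHR was at 88.3 to 92.0 FPKM in AA and 28.4 to 51.0 FPKM in HA, and CYP19A1 at 128 to 307 FPKM in AA and 744 to 1052 FPKM in HA. Of the 9 tested granulosa markers, only FSHR had a log2 change (AA minus HA) above 0, and their median was -0.58. The median of all genes tested was 0.01. FPKM are fragments scaled to the length of the transcript and to the mapped fragments of the library, so levels of different genes can be set side by side. CYP17A1, which defines theca cells, stayed between 0 and 1.38 FPKM. The summed level of the 9 leukocyte markers found was 46.1 to 146 FPKM in AA and 4.77 to 19.5 FPKM in HA, with CD163 at 0 throughout. The sum of the 5 theca-list genes found was 43.7 to 102 FPKM in AA and 214 to 322 FPKM in HA. LHCGR added the most in every library, at 21.2 to 65.3 FPKM in AA and 172 to 286 FPKM in HA. The sum therefore follows LHCGR more than the other theca-list genes, and theca cell content was not tested. INSL3 and PTCH1 overlapped between the groups. In the paper's PCR assay CYP17A1 was below detection, and theca contamination was judged negligible. The endothelium sum was 7.76 to 16.8 FPKM in AA and 3.61 to 7.36 FPKM in HA. Of its 2 tested genes, PECAM1 separated the groups, at 4.58 to 8.79 FPKM in AA and 1.15 to 4.42 FPKM in HA. KDR overlapped, with AA library 1 at 2.78 FPKM below HA library 1 at 3.42 FPKM. AA library 2 stood apart from the other libraries on the first principal component, which held 48.2% of the variance, and it had the highest leukocyte sum. In bulk samples such as these, a change in the share of a cell type and a change in RNA per cell cannot be told apart.

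All 10 rows were expressed at a moderate level and passed the filter of at least 1 FPKM in at least 3 libraries. XPO5 had the highest mean level over the 6 libraries, at 32.2 FPKM, and TNRC6B the lowest, at 10.5 FPKM. XPO5 was above AGO2, the next in order, in 6 of 6 libraries. AGO2, DICER1, DGCR8, AGO4 and AGO1 followed with mean levels of 24.8, 23.3, 21.8, 20.6 and 19.4 FPKM. Each of these was above the next in only 3 or 4 of the 6 libraries, so their order is not separated from the spread between libraries. AGO1 was above DROSHA, at a mean of 16.2 FPKM, in 6 of 6 libraries, and their ranges overlapped in neither group. The AGO3 rows came next, at 13.0 and 11.6 FPKM, and neither was above the other in more than 3 libraries.

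**Figure D1:**
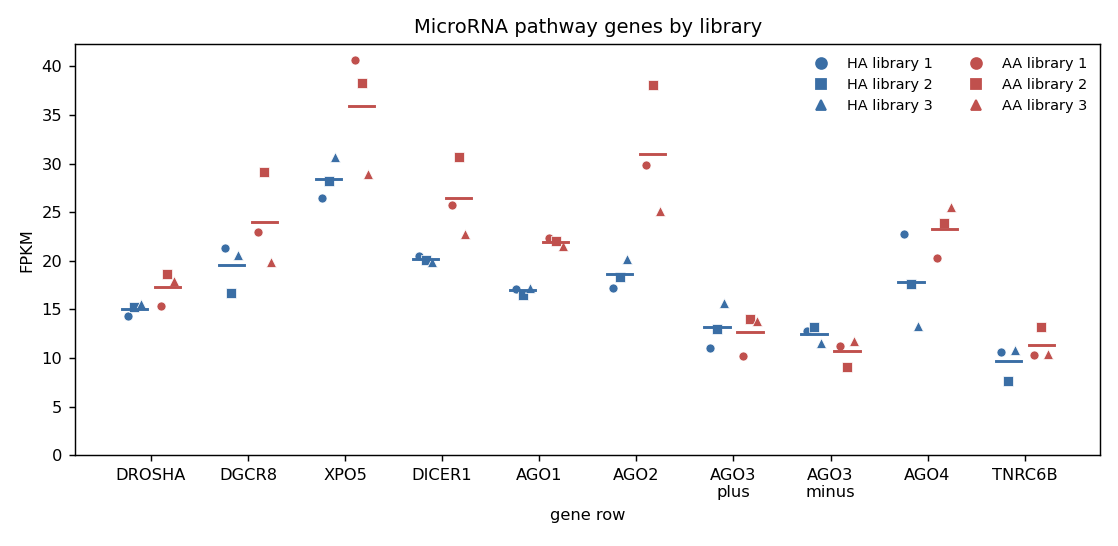
FPKM (y axis) of the 10 gene rows (x axis) in each library. Blue points are the 3 HA libraries, red points the 3 AA libraries, the symbol gives the library number, and horizontal lines are group means. For AGO1, AGO2 and DICER1 all red points lie above all blue points, and for the other 7 rows the groups overlap.

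The comparison asked whether the mRNA levels of this pathway differed between granulosa cells of atretic and healthy follicles. AGO2, AGO1 and DICER1 were higher in every AA library than in every HA library, and no row was lower in every AA library. Among all 11001 genes tested, 11.9% had every AA library above every HA library. No row reached an adjusted p of 0.05 in the limma fit across all genes, in which 0 of 11001 genes (0%) did so. At an unadjusted p of 0.05 the same fit gave 1718 genes, or 15.6% of those tested. Of the genes tested, 1043 (9.48%) were higher in AA at that p, among them 1 of the 10 rows, AGO2. With the library number as a block 13 genes were called, all higher in AA and none of this pathway. The log2 change was above 0 in 8 of the 10 rows, with a median of 0.29, beside 51.6% of all genes tested and a median of 0.01.

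DROSHA (chr16:18544602-18667159, minus strand, Sscrofa10.2), the RNase that releases the hairpin, was at 15.3, 18.6 and 18.0 FPKM in AA libraries 1 to 3 and at 14.3, 15.3 and 15.5 FPKM in HA libraries 1 to 3. AA libraries 2 and 3 lay above the HA libraries and AA library 1 lay among them. Its log2 change (AA minus HA, on the log2(FPKM + 1) scale) was 0.19 ± 0.18 (SE), with an adjusted p of 0.66 in limma. DGCR8 (chr14:55110362-55126603, plus strand), the partner that binds the hairpin, was at 23.0, 29.1 and 19.9 FPKM in AA and 21.3, 16.7 and 20.6 FPKM in HA. Only AA libraries 1 and 2 exceeded every HA library, and AA library 3 lay within the HA range. The log2 change of DGCR8 was 0.27 ± 0.21 (SE), with a limma adjusted p of 0.567, and the change was 0.13 without AA library 2 and 0.17 without HA library 2. The ratio of DGCR8 to DROSHA within a library reached from 1.11 to 1.56 in AA and from 1.10 to 1.49 in HA, and the groups overlapped.

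XPO5 (chr7:44092579-44151883, minus strand), which was matched by its Ensembl identifier, was at 40.6, 38.3 and 28.9 FPKM in AA and 26.5, 28.2 and 30.6 FPKM in HA. AA libraries 1 and 2 were above the HA range and AA library 3 was inside it. The log2 change was 0.32 ± 0.19 (SE), with a limma adjusted p of 0.466. POLR1C, an RNA polymerase subunit gene, has the same locus on the opposite strand in the table, and no source used here states the strand setting of the counting, so the XPO5 level is uncertain. DICER1 (chr7:123586575-123624391, minus strand), the RNase that cuts the exported hairpin, was at 25.8, 30.7 and 22.7 FPKM in AA and at 20.5, 20.1 and 19.8 FPKM in HA. All AA libraries were above all HA libraries, and the HA values were close together (20.2 ± 0.355 FPKM, SD, n = 3) while the AA values were spread (26.4 ± 4.03 FPKM, SD, n = 3). The fitted fold was 1.29, with a 95% interval of 0.966 to 1.71 and a limma adjusted p of 0.378. The ratio of DICER1 to DROSHA was 1.68, 1.65 and 1.27 in AA and 1.44, 1.32 and 1.28 in HA, and it overlapped between groups.

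AGO2 (chr4:2362659-2385521, plus strand), the main target-cutting Argonaute of mammals, was at 29.8, 38.1 and 25.1 FPKM in AA and at 17.2, 18.4 and 20.2 FPKM in HA. The lowest AA library was above the highest HA library. AGO2 had the largest fitted difference of the 10 rows, a fold of 1.61 with a 95% interval of 1.17 to 2.22, and ranked 604 of 11001 genes by p (limma unadjusted p = 0.0087, adjusted p = 0.157). The interval, which is not adjusted for the number of genes, lies above a fold of 1, while the adjusted p does not reach 0.05. Without AA library 2, the library with the highest AGO2, the log2 change of AGO2 was 0.54 in place of 0.69 and the adjusted p was 0.461. Without AA library 3, the AA library with the lowest AGO2, these were 0.83 and 0.0819. AGO2 did not pass in any setting tried.

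AGO1 (chr6:85325554-85359514, plus strand), an Argonaute with little or no slicing activity, had the narrowest AA range of the 10 rows relative to its level. It was at 22.3, 22.0 and 21.5 FPKM in AA and 17.1, 16.5 and 17.2 FPKM in HA. The groups were separated by more than the whole range of either. Its log2 change was 0.35 ± 0.17 (SE), with a limma adjusted p of 0.352, and it stayed between 0.33 and 0.37 when any 1 library was left out. This standard error is not the spread of AGO1 alone, since limma draws the variance of each gene towards that of genes at the same level.

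AGO3 did not follow AGO1 and AGO2 in direction in either of its rows, although a difference between the genes was not tested. The plus-strand row (chr6:85391722-85417982), a model that held only 71 to 123 fragments per library, was at 10.3, 14.1 and 13.8 FPKM in AA and 11.1, 13.0 and 15.6 FPKM in HA. The minus-strand row (chr6:85418616-85460893), with 188 to 383 fragments, was at 11.2, 9.11 and 11.8 FPKM in AA and 12.8, 13.2 and 11.5 FPKM in HA. Both rows overlapped between the groups. The log2 change of the plus-strand row was -0.05 ± 0.23 (SE, limma adjusted p = 0.932) and that of the minus-strand row -0.21 ± 0.20 (SE, limma adjusted p = 0.66), or -0.11 without AA library 2. Which of the 2 models better represents AGO3 cannot be told from the FPKM. All 4 circRNAs of AGO3 lie within the minus-strand model and on its strand. AGO4 (chr6:85255419-85300753, plus strand) was at 20.3, 23.9 and 25.5 FPKM in AA and 22.7, 17.6 and 13.3 FPKM in HA. HA library 1 lay above AA library 1, so the groups overlapped, and the HA range was the widest of the Argonautes. The log2 change of AGO4 was 0.39 ± 0.23 (SE), with a limma adjusted p of 0.466, and it went from 0.20 without HA library 3 to 0.57 without HA library 1.

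AGO1, AGO3 and AGO4 lie next to each other on chromosome 6 and AGO2 on chromosome 4. The summed FPKM of the 5 Argonaute rows was 93.9, 107 and 97.7 in AA and 80.9, 78.6 and 77.9 in HA. Because AGO3 enters this sum with both of its rows, the shares of the other Argonautes are lower than with either row alone. AGO2 made up 31.7%, 35.6% and 25.7% of the sum in AA and 21.3%, 23.4% and 25.9% in HA. The sum, which includes the separated rows AGO1 and AGO2, did not overlap between the groups. The share of AGO2 did, because AA library 3 lay just below HA library 3. Only the share of the AGO3 minus-strand row did not overlap, at 8.50% to 12.1% in AA and 14.8% to 16.8% in HA. The AGO2 to AGO1 ratio was at most 1.73 in AA and at most 1.17 in HA, and it overlapped as well, with AA library 3 at 1.17. These sums, shares and ratios are descriptions and carry no test.

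TNRC6B (chr5:5297077-5431373, minus strand), the scaffold that links Argonaute to deadenylases, was at 10.3, 13.2 and 10.5 FPKM in AA and 10.6, 7.60 and 10.8 FPKM in HA. AA libraries 1 and 3 fell between HA library 2 and HA library 1, so only AA library 2 stood above the HA range. The log2 change of TNRC6B was 0.21 ± 0.23 (SE), with a limma adjusted p of 0.695, and the change was 0.063 without HA library 2 and 0.11 without AA library 2.

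**Figure D2:**
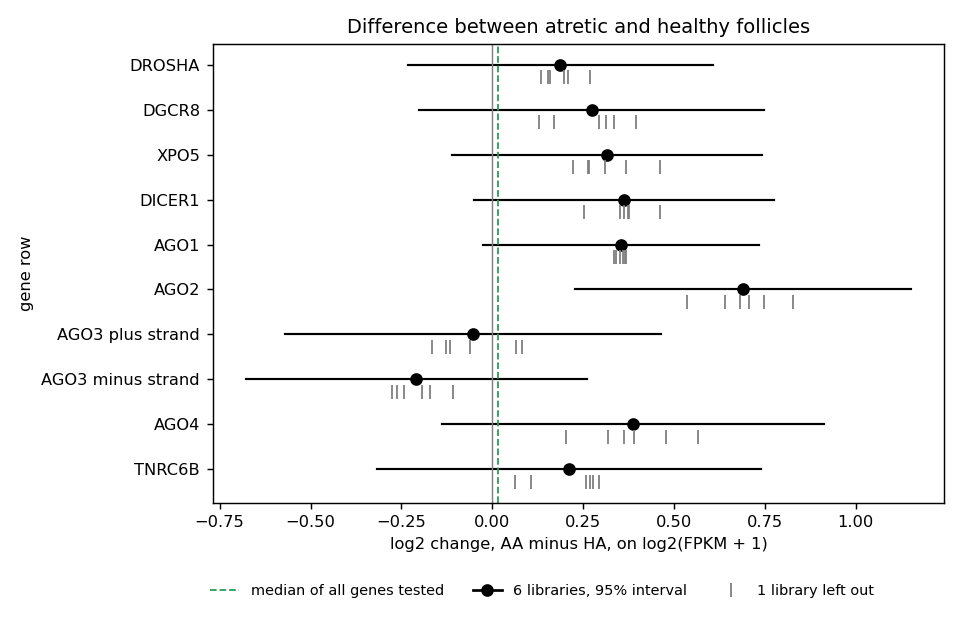
Log2 change between AA and HA (x axis, on the log2(FPKM + 1) scale) of each gene row (y axis). Points and lines are the estimate from 6 libraries with its unadjusted 95% interval, short grey ticks are the estimates with 1 library left out, and the dashed line is the median of all genes tested. The interval of AGO2 lies above 0, and those of the other 9 rows include 0.

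In AA library 2, 8 of the 10 rows were above every HA library, against 5 rows each in AA libraries 1 and 3. Of all genes tested, 34.5%, 32.8% and 28.2% were above every HA library in AA libraries 1, 2 and 3. Against the HA mean, the median of the 10 rows was 0.42 higher in AA library 2, 0.22 higher in AA library 1 and 0.14 higher in AA library 3 on the log2(FPKM + 1) scale. The leukocyte sum was 49.0, 146 and 46.1 FPKM in AA libraries 1 to 3. The fibroblast and smooth muscle sum was 37.5, 98.3 and 44.3 FPKM, against at most 31.6 FPKM in HA. Of the 5 tested genes of that list, only ACTA2 separated the groups, at 24.4 to 42.5 FPKM in AA and 7.03 to 16.6 FPKM in HA. DCN, COL1A1, COL1A2 and COL3A1 overlapped. PTPRC, the pan-leukocyte gene, was at 0.868, 9.02 and 3.22 FPKM in AA. Its AA library 1 lay below HA library 1, so PTPRC overlapped between the groups, as did LYZ. Of the 7 tested leukocyte markers, the other 5 had every AA library above every HA library, as did 11.9% of all genes tested. The part of these other cell types in the microRNA pathway values was not tested. Without AA library 2 the log2 change was 0.35 for AGO1 and 0.25 for DICER1.

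**Figure D3:**
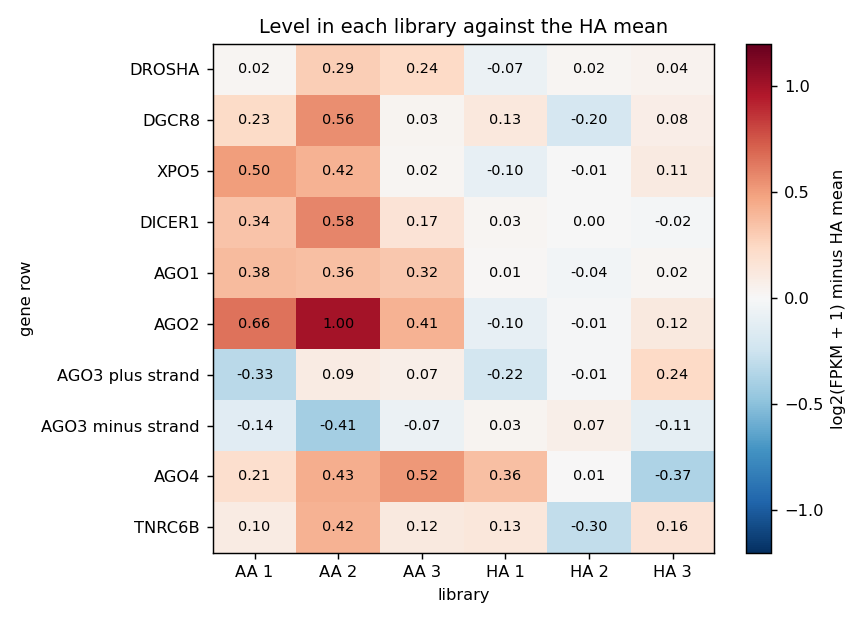
Log2(FPKM + 1) of each gene row (y axis) in each library (x axis) minus the mean of the 3 HA libraries, with the value printed in each cell. Red is above and blue below the HA mean. The deepest red is AGO2 in AA library 2, and AGO1 ranges only from 0.32 to 0.38 over the AA libraries.

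The partners of these genes were followed in 5 lists of tested genes, and in none of them did a gene pass the adjusted p of 0.05. Among 14 tested partners of the microprocessor and of export, 2 were higher in AA at an unadjusted p of 0.05 and 0 were lower, with a median log2 change of 0.03, where 9.48% and 6.14% of all genes tested were. The smallest p belonged to SRSF3, a splicing factor that aids microprocessor recognition, at 52.0, 55.3 and 53.3 FPKM in AA and 37.9, 39.6 and 46.9 FPKM in HA. The limma log2 change of SRSF3 was 0.37, with an adjusted p of 0.314. The other was KHSRP, an RNA-binding protein that promotes processing of some hairpins, at 83.4 to 85.3 FPKM in AA and 60.4 to 76.2 FPKM in HA. LIN28A and LIN28B, which block let-7 maturation, were listed at 0 in every library.

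Of 22 tested partners of DICER1 and of Argonaute loading, 1 was higher at an unadjusted p of 0.05 and 0 lower, with a median log2 change of -0.03, again beside 9.48% and 6.14% of all genes tested. It was FKBP5, a co-chaperone of HSP90, at 92.6, 153 and 107 FPKM in AA and 80.3, 63.2 and 71.2 FPKM in HA. All AA libraries lay above all HA libraries, as for 11.9% of all genes tested. The highest FKBP5 value was in AA library 2 (limma log2 change 0.68, adjusted p = 0.181). The DICER1 partners TARBP2 and PRKRA were added for their role after their values were seen. TARBP2 was at 7.88, 5.33 and 3.17 FPKM in AA and 3.81, 3.95 and 7.85 FPKM in HA, and PRKRA at 20.2, 23.0 and 25.9 FPKM in AA and 34.6, 33.5 and 25.6 FPKM in HA. Both overlapped between the groups.

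Downstream of TNRC6, 21 tested rows of the deadenylation and silencing complexes gave 0 higher and 1 lower at an unadjusted p of 0.05, with a median log2 change of 0.03. This was TOB1, an antiproliferative adaptor of the CCR4-NOT deadenylase, at 73.1, 51.2 and 68.4 FPKM in AA and 92.2, 141 and 134 FPKM in HA. Every AA library was below every HA library, as for 9.1% of all genes tested (limma log2 change -0.91, adjusted p = 0.116). Among 16 tested decapping and P-body genes 1 was higher, PATL1, a scaffold of decapping, at 25.5, 31.7 and 26.6 FPKM in AA and 20.8, 21.2 and 19.8 FPKM in HA (limma log2 change 0.42, adjusted p = 0.297). The median log2 change of that list was -0.06. Among 13 tested genes of small RNA tailing and turnover 1 was lower, PNPT1, a mitochondrial exoribonuclease, at 10.0, 8.09 and 15.0 FPKM in AA and 28.7, 21.5 and 15.6 FPKM in HA (limma log2 change -0.93, adjusted p = 0.185). The median of that list was 0.14. Over all genes tested, 9.48% were higher and 6.14% lower in AA at an unadjusted p of 0.05. The 4 PIWI genes, Argonaute relatives of the germ line, were all found but summed to at most 0.333 FPKM in any library and were not tested.

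**Figure D4:**
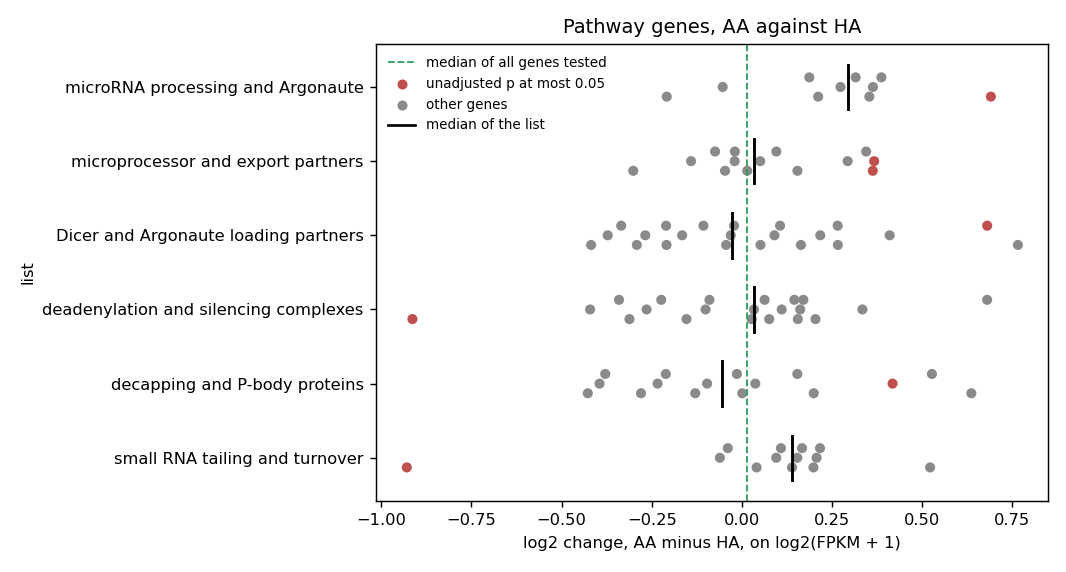
Log2 change between AA and HA (x axis) of every tested gene in the 10 rows described here and in 5 lists of partner genes (y axis). Red points reached an unadjusted p of 0.05 in limma, black bars are the median of each list and the dashed line is the median of all genes tested. The list medians range from -0.06 to 0.14, and the 10 rows have a median of 0.29.

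Of the 9 genes found, 7 were hosts of at least 1 circRNA, and among genes with a mean FPKM in the range of these 9 genes 35.0% were. A circRNA forms when a downstream splice site is joined back to an upstream one, and it is counted by reads across that back-splice junction. The 17 circRNAs held 186 junction reads over 6 libraries, and 15 of them were seen in 1 library only, against 77.2% of all circRNAs in the table. The median was 5 reads per circRNA, against 6 over the whole table. AGO4 gave 6, AGO3 4, DICER1 3, and AGO1, DROSHA, XPO5 and TNRC6B 1 each, while none was listed for AGO2 or DGCR8. Only 7.63% of all host genes had at least 6 circRNAs. Of the 17, 13 were annotated as exonic, with spliced lengths of 257 to 2156 nt, and 4 as sense overlapping. HA library 3 held reads of 10 of them and AA library 2 of none. Over the whole table these libraries held 3465 and 1270 circRNAs, the most and the fewest. Reads came only from HA libraries for 11 circRNAs, 9 of which were seen in HA library 3 alone, only from AA libraries for 4, and from both for 2. Over the whole table these shares were 47.3%, 34.8% and 17.8%.

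**Figure D5:**
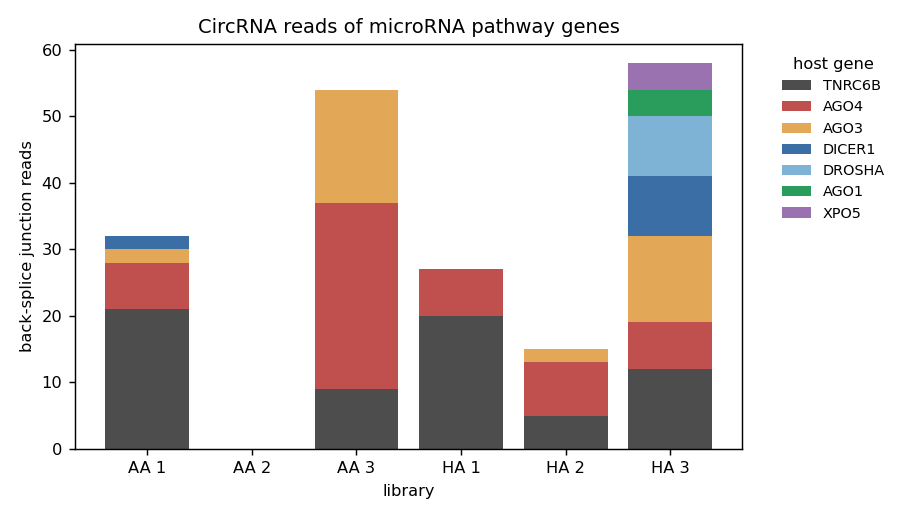
Back-splice junction reads (y axis, not scaled for depth) in each library (x axis), stacked by host gene. AA library 2 has no reads, AA library 3 is mostly AGO4 and AGO3, and HA library 3, at 58 reads, is the only library with reads of DROSHA, AGO1 and XPO5.

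The TNRC6B circRNA (chr5:5399612-5431806, minus strand, sense overlapping) was the only one that passed the filter of at least 2 reads in at least 3 libraries. It had 67 reads, or 36.0% of the reads of all 17. Its counts were 21, 0 and 9 in AA and 20, 5 and 12 in HA. The groups overlapped, and AA library 2, the library with the highest TNRC6B FPKM, had no read. Its edgeR log2 change was -0.51, with an adjusted p of 0.998 over 1014 circRNAs, of which 1 (0.0986%) was called and 59 (5.82%) had an unadjusted p of at most 0.05. Its direction rested on single libraries: the log2 change was 0.07 without AA library 2 and 0.27 without HA library 1. In simulated data at the dispersion of these libraries the edgeR fit recovered no changed circRNA, so the adjusted p does not show an unchanged level. On the minus-strand gene TNRC6B the circRNA reaches 433 bases upstream of the start of the gene model.

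The other 16 circRNAs were read in 1 or 2 libraries each, fell under the filter and were not tested. Summed over its circRNAs, AGO4 was read 7, 0 and 28 times in the AA libraries, against 7, 8 and 7 times in the HA libraries. The AGO3 sums were 2, 0 and 17 for AA, against 0, 2 and 13 for HA, and both genes overlapped between the groups. The leading AGO4 circRNA (chr6:85261799-85271323) had 28 reads, all in AA library 3. The other 5 AGO4 circRNAs had 3 to 8 reads, each in 1 library, and the one at chr6:85261799-85284732, which shares its start with the leading one, had 7 reads in AA library 1. AGO4 circRNAs were thus read in 5 libraries, but none of the 6 was read in more than 1 of them. The leading AGO3 circRNA (chr6:85446257-85460816, minus strand) had 17 reads in AA library 3 and 2 in HA library 2. The leading DICER1 circRNA (chr7:123593408-123624436) had 5 reads, that of DROSHA (chr16:18564948-18568302) 9, that of AGO1 (chr6:85341893-85342284) 4 and that of XPO5 (chr7:44113044-44113363) 4, all in HA library 3. Of the 17 circRNAs, 11 shared a junction end with another circRNA of the table, or 64.7% against 45.7% of all circRNAs. Summed over the 17 and divided by relative mapped depth, the AA libraries averaged 33.8 ± 34.8 reads (SD, n = 3) and the HA libraries 39.0 ± 23.8 reads (SD, n = 3), a difference smaller than the spread of either group.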

How the data were processed

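Granulosa cell RNA of 3 AA and 3 HA pools was sequenced. The authors depleted rRNA, made stranded libraries, aligned reads with bowtie2 to Sscrofa10.2 (susScr3, per the labels) and found back-splice junctions with find_circ, keeping circRNAs of 2 or more reads. The deposited gene table gives the authors' FPKM, and scaled fragment values, a signal used here only for depth and for the fragments per gene row. Per the values, 99.7% to 99.9% of its low entries are whole multiples of 1 constant per library. The deposited circRNA table gives raw junction read counts and the authors' log2 values, whose constants gave the mapped depth of each library. The lncRNA table was not used.

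The test for FPKM was limma 3.58.1 with a variance trend, on log2(FPKM + 1) of 11001 genes that reached 1 FPKM in 3 or more libraries. For junction reads it was edgeR 4.0.16 (quasi-likelihood, sizes from mapped depth) on 1014 circRNAs that reached 2 reads in 3 or more libraries, with a call also needing a fold of 2. Benjamini-Hochberg adjustment ran over all features tested, with a threshold of 0.05. In simulated data with gene changes of at least 2-fold, the limma fit recovered only part of them. The fitted folds of the microRNA pathway rows were all smaller than that, so a row that was not called may still differ. The edgeR fit recovered changed circRNAs at a dispersion well below that of these libraries but none at theirs. The text names all chosen genes, the leading circRNA of each host gene, the gene of smallest adjusted p in each partner list, and marker genes. The genes and lists were chosen with earlier results of these data known.

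AA and HA libraries of a number carry 1 date in the labels, taken here as a pairing by day. In the values, same-numbered libraries correlated at -0.29, 0.00 and -0.40 after centring on their groups. The replicate block was an alternative, beside a pseudocount of 0.1, other filters, scalings and folds, DESeq2 1.42.0 for circRNAs, and each library left out. The p-values measure only the spread between these pools.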

Additional observations from a re-analysis of the deposited data

How the results depend on the processing

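No log2 change of the 10 gene rows was called in any of 13 alternatives each (130 values, smallest adjusted p 0.0819 for AGO2 without AA library 3), and 128 kept their direction. The 2 exceptions were the AGO3 plus-strand row, whose -0.05 with all libraries went from -0.17 to 0.082 with 1 library left out, and was 0.082 without AA library 1 and 0.065 without HA library 3. The number of genes called went from 0 to 13 with the replicate block, which changed no call of these genes, and from 0 to 97 (75 higher, 22 lower) without AA library 3. It was 0 to 97 over all left-out libraries and 0 in the other settings. The rows with every AA library above every HA library numbered 3 to 5 with 1 library left out, a count that leaving out a library cannot lower. It was 5 without AA library 1, AA library 3 or HA library 3, and the share of all genes was then 15.3%, 21.7% and 20.5%. That alternative was chosen after seeing the data. Of circRNAs, 1 was called, but 0 with the replicate block, TMM scaling, DESeq2 or no filter, and 0 to 2 with 1 library left out. The log2 change of the TNRC6B circRNA was -1.25 with the block (adjusted p 0.984) and -1.40 to 0.27 with 1 library left out, with positive values of 0.07 without AA library 2 and 0.27 without HA library 1. The summed circRNA reads differed by -5.15 (AA minus HA), by -6.76 when scaled to junction reads, and by -23.0 to 11.8 with 1 library left out. The lowest fragment counts were those of the AGO3 rows, and 16 of the 17 circRNAs had too few libraries with reads to be tested.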
